A study of Mus musculus with 12 samples.

Results

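The 7 genes described here encode cytokines through which lymph node stroma keeps immune cells alive or makes them grow: Il7, Il15, Il33, Tnfsf13b, Kitl, Csf1 and Flt3l. They were chosen by symbol, all 7 were found among the 32285 genes listed, and their unique molecular identifiers (UMIs, each a tag of 1 captured transcript) were summed over the cells of 12 single-cell libraries. The libraries came from lymph nodes of C57BL/6 mice aged 7 to 10 weeks that were homozygous for a floxed Atg12, an autophagy gene, and were labelled positive or negative for CDH5-CreER, a tamoxifen-dependent recombinase driven by an endothelial promoter. Every mouse received tamoxifen, the Cre-negative ones included. Inflammation was set off with 4% oxazolone, a skin sensitiser, painted on the abdomen in acetone and olive oil, and nodes were taken on day 3 or day 7, while vehicle mice received the solvent alone. Each of the 6 combinations of treatment and Cre label gave 1 library of cells that did not bind CD45 beads (CD31 libraries, labelled endothelial) and 1 of cells that did (CD45 libraries). The labels do not say how many mice went into a library, so p-values measure the spread between these libraries only.

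Fibroblastic reticular cells line the T zone and are known for making IL-7, which T cells need to survive, and BAFF, the product of Tnfsf13b, which B cells need. Endothelial cells line the blood vessels, among them the high endothelial venules (HEV) through which lymphocytes enter, and lymphatic endothelial cells line the sinuses that carry lymph. IL-15 is shown to NK and memory T cells on the IL-15 receptor alpha chain, SCF (Kitl) feeds mast cells and progenitors through Kit, CSF-1 feeds macrophages through Csf1r, FLT3 ligand feeds dendritic cells, and IL-33 is a nuclear alarmin that acts through ST2 (Il1rl1) when it is released.

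In GENCODE M21 on the mouse build GRCm38, Il7 spans chr3:7569994-7613760 and Csf1 chr3:107741048-107760469, both on the minus strand. Il15 spans chr8:82331632-82403222 on the minus strand and Tnfsf13b chr8:10006467-10039072 on the plus strand. Kitl lies at chr10:100015630-100100416 on the plus strand, Il33 at chr19:29925114-29960718 on the plus strand and Flt3l at chr7:45129788-45136432 on the minus strand. Il7 overlaps the antisense gene Gm16685, and Tnfsf13b overlaps Gm44789 on the opposite strand. Flt3l overlaps the protein-coding gene Gm45713 on the same strand. The stretches of 250 bases before the start sites of Il33, Csf1 and Tnfsf13b are shown. Il33 is the member whose change with treatment passed a test, while the other pair led in lymphatic endothelial and fibroblast cells, as described further on. They come from RefSeq (GRCm38.p6), which had a promoter for 5 of the 7 genes, and each is written 5′ to 3′ on the strand of the gene.
Il33, distal start, chr19:29924863-29925112, plus strand: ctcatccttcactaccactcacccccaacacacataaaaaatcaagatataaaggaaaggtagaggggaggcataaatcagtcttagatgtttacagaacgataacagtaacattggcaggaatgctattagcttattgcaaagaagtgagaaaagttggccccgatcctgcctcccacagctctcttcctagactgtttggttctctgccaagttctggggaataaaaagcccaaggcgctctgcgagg
Il33, proximal start, chr19:29945540-29945789, plus strand: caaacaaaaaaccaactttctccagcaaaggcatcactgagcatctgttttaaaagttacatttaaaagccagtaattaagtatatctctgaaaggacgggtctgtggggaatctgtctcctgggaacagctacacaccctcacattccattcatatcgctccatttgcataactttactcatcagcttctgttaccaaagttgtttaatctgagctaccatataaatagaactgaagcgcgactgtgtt
Csf1, chr3:107760470-107760719, minus strand: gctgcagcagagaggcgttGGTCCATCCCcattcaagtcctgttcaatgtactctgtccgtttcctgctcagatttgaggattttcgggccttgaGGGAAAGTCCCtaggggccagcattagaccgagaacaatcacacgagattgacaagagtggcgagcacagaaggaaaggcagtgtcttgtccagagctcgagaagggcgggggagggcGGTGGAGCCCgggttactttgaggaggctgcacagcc
Tnfsf13b, chr8:10006217-10006466, plus strand: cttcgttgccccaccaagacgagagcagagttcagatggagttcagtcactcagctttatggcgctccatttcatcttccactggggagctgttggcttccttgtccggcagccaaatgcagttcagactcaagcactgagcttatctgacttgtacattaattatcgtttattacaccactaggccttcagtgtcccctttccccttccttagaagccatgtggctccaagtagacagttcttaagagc
Capitals mark matches on either strand to 4 motifs: NF-kB (GGG, any 5 bases, then CC), AP-1 (TGANTCA), IRF (GAAA, any 2 bases, then GAAA) and STAT (TTCNNNGAA). Of 32851 promoter windows of this length in the table, 45.8% held the first, 6.75% the second, 2.98% the third and 7.02% the fourth. Of the 4 windows shown, that of Csf1 held matches, with 4 matches to the NF-kB letters, of which 2 overlap each other. Both windows of Il33 held none of these letters, nor did the Tnfsf13b window shown. A second Tnfsf13b start in the table, whose window lies mostly in an exon and is not printed, had 1 AP-1 and 1 IRF match. The windows of Kitl and Flt3l are also not printed. That of Kitl, with 191 of 250 bases in an exon, had 3 NF-kB matches, all in that part, of which 2 overlap each other. That of Flt3l had 1 NF-kB and 1 IRF match. The libraries count the 3-prime ends of transcripts, so they do not tell which start of Il33 was used.

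After filters, 5698 to 10553 cells were kept per library, from 36724887 to 76187731 UMIs per library. Any 2 libraries shared at most 27 cell barcodes. A low-UMI cluster of 2828 cells lay mostly in 2 CD31 libraries, day 3 Cre-positive (2127 cells, 20.2% of the library) and vehicle Cre-negative (577 cells, 6.25%), against 0.309% to 0.834% in the other 4. It entered none of the 3 stromal classes, and all 7 members passed between whole fractions without it. Clusters were named from marker genes, without using the 7 cytokines to cluster. The CD31 libraries held 23992 blood endothelial-like cells (Pecam1 between 1070 and 1530 CPM, counts per 1000000 UMIs of the sum) and 4792 lymphatic endothelial-like cells (Prox1 between 677 and 956 CPM), but only 59 fibroblast-like cells. The CD45 libraries, although selected for CD45, held 8615 fibroblast-like cells, 15.6% to 25.7% of each library, with Pdgfra at 249 to 492 CPM and Ptprc, which encodes CD45, at 14.8 to 22.6 CPM. So blood and lymphatic endothelial values come from the CD31 libraries, and fibroblast values from the CD45 libraries. Atg12 read 46.1 to 52.5 CPM in blood endothelial-like cells labelled Cre-negative and 59.8 to 73.8 CPM in those labelled Cre-positive. The labels do not name the deleted exon, so these 3-prime counts do not check the Cre label. Sex was not the same in each: cells with a UMI of a Y-linked gene made up 38.4% to 73.3% of the vehicle libraries, 21.1% to 45.8% on day 3 and 19.4% to 31.1% on day 7. Under vehicle the share was 68.2% (CD31) and 73.3% (CD45) in Cre-positive libraries, against 41.8% and 38.4% in Cre-negative ones. So neither treatment nor Cre label was balanced for this share.

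The 7 genes had different main sources. Of the UMIs of Kitl in the CD31 libraries, 94.7% lay in blood endothelial-like cells, and 84.9% of those of Il15 did. Lymphatic endothelial-like cells held 92.6% of the Il33 UMIs, 72.6% of the Il7 UMIs and 69.0% of the Csf1 UMIs of the same libraries. In the CD45 libraries fibroblast-like cells held 99.3% of the Il33 UMIs, 98.5% of those of Tnfsf13b, 98.3% of those of Il7, 92.3% of those of Csf1, 92.0% of those of Kitl and 68.5% of those of Flt3l. Il15 was the exception there, with 55.2% of its UMIs in dendritic cell-like cells. These shares rest on how many cells of each class a library held as well as on the level per cell, and classes are clusters of the same cells, so levels are compared between them as a description.

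**Figure D1:**
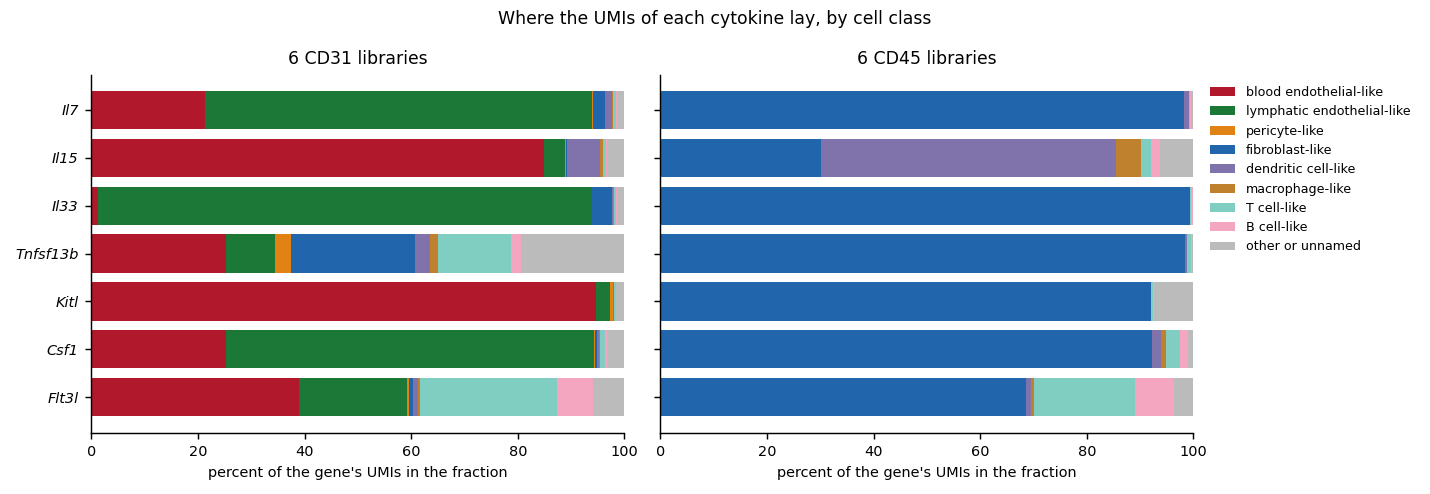
Share of each cytokine's UMIs (percent, horizontal axis) by cell class, summed over the 6 CD31 libraries (left) and the 6 CD45 libraries (right). Blood endothelial-like cells held 94.7% of the Kitl UMIs on the left, and fibroblast-like cells 99.3% of the Il33 UMIs on the right.

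Whole libraries were compared by fraction with an edgeR quasi-likelihood test over 12 libraries with treatment and Cre label as terms. All 7 genes passed at an adjusted p under 0.05, beside 59.0% of the 17578 genes tested, so passing says little about these genes in particular and the sizes carry the description. Kitl was higher in CD31 libraries, at 310.4 to 544 CPM against 32.2 to 75.3 CPM, a log2 difference of 2.86 ± 0.19 (SE). Il15 was higher by 2.24 ± 0.14 and Csf1 by 0.89 ± 0.19 on the log2 scale. Tnfsf13b was higher in the CD45 libraries, at 22.6 to 53.9 CPM against 0.519 to 1.19 CPM, a log2 difference of -5.75 ± 0.25. Il33 differed by -1.82 ± 0.49, Il7 by -1.39 ± 0.19 and Flt3l by -1.31 ± 0.13. In this test the makeup of the libraries and the level per cell cannot be told apart.

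Kitl, the membrane-bound or shed ligand of Kit, had its highest level in blood endothelial-like cells. Its level there was 786 and 986 CPM in the vehicle libraries (Cre-negative, then Cre-positive, the order used throughout), 675 and 646 CPM on day 3, and 766 and 740.1 CPM on day 7. The vehicle Cre-positive library stood highest and the day 3 pair lowest, and the other 3 lay between. Pericyte-like cells, which wrap small vessels, came next with a median of 415 CPM (323 to 569 CPM over 6 libraries), then fibroblast-like cells with 165 CPM (137 to 217 CPM) and lymphatic endothelial-like cells with 63.9 CPM (45.8 to 123 CPM). These 4 ranges did not overlap. Within blood endothelium, arterial-like cells had 862 to 1342 CPM, capillary-like cells 703 to 1014 CPM and HEV-like cells 435 to 823 CPM, so the arterial range overlapped the capillary one. Of the HEV-like cells, a cluster of 1936 scored higher for venous markers (2.66) than for HEV markers (2.35). At a finer clustering a venous cluster of 269 cells stood apart, so HEV-like cells may include other veins. HEV-like cells read 687 and 823 CPM under vehicle, 435 and 480.4 CPM on day 3 and 652 and 599 CPM on day 7, so both day 3 libraries lay below the other 4. Kitl did not pass in HEV-like cells tested alone.

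Kit, its receptor, was itself measured in blood endothelial-like cells, at 80.1 to 99.7 CPM, against 6.41 to 12.6 CPM in lymphatic endothelial-like cells.

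Il15, which supports NK and memory T cells, was high in migratory dendritic cell-like cells and in the HEV-like part of the blood endothelium. The dendritic cells of the CD31 libraries read 184 to 411 CPM, and dendritic cell-like cells of the CD45 libraries 136 to 233 CPM. The latter include Xcr1-led cells, and their migratory part alone read 201 to 382 CPM. Neutrophil-like cells were few (106 in CD31 and 71 in CD45 libraries). They read 322 and 128 CPM in the vehicle and day 3 Cre-positive CD31 libraries. In the vehicle and day 3 Cre-negative CD45 libraries they read 198 and 180 CPM. Blood endothelial-like cells had a median of 123 CPM (110.2 to 157 CPM), lymphatic endothelial-like cells 20.8 CPM (15.2 to 26.97 CPM) and fibroblast-like cells 15.3 CPM (13.3 to 20.1 CPM), and the ranges of the last pair overlapped. Within blood endothelium HEV-like cells read 206 and 175 CPM under vehicle, 297 and 189.7 CPM on day 3, and 179 and 176 CPM on day 7. The day 3 Cre-negative library stood above the other 5. In 4 libraries migratory dendritic cell-like cells read higher than HEV-like cells, and in the 2 day 3 libraries slightly lower, at 292 and 184 CPM. Cells led by Apln, a tip cell gene, had 144 to 172 CPM, capillary-like cells 71.9 to 108 CPM and arterial-like cells 67.0 to 87.3 CPM.

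Il15ra, which carries IL-15 to the surface, was also highest in dendritic cell-like cells, with 156 to 267 CPM in the CD31 libraries, against 19.1 to 24.95 CPM in blood endothelial-like cells and 29.8 to 43.1 CPM in lymphatic endothelial-like cells.

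**Figure D2:**
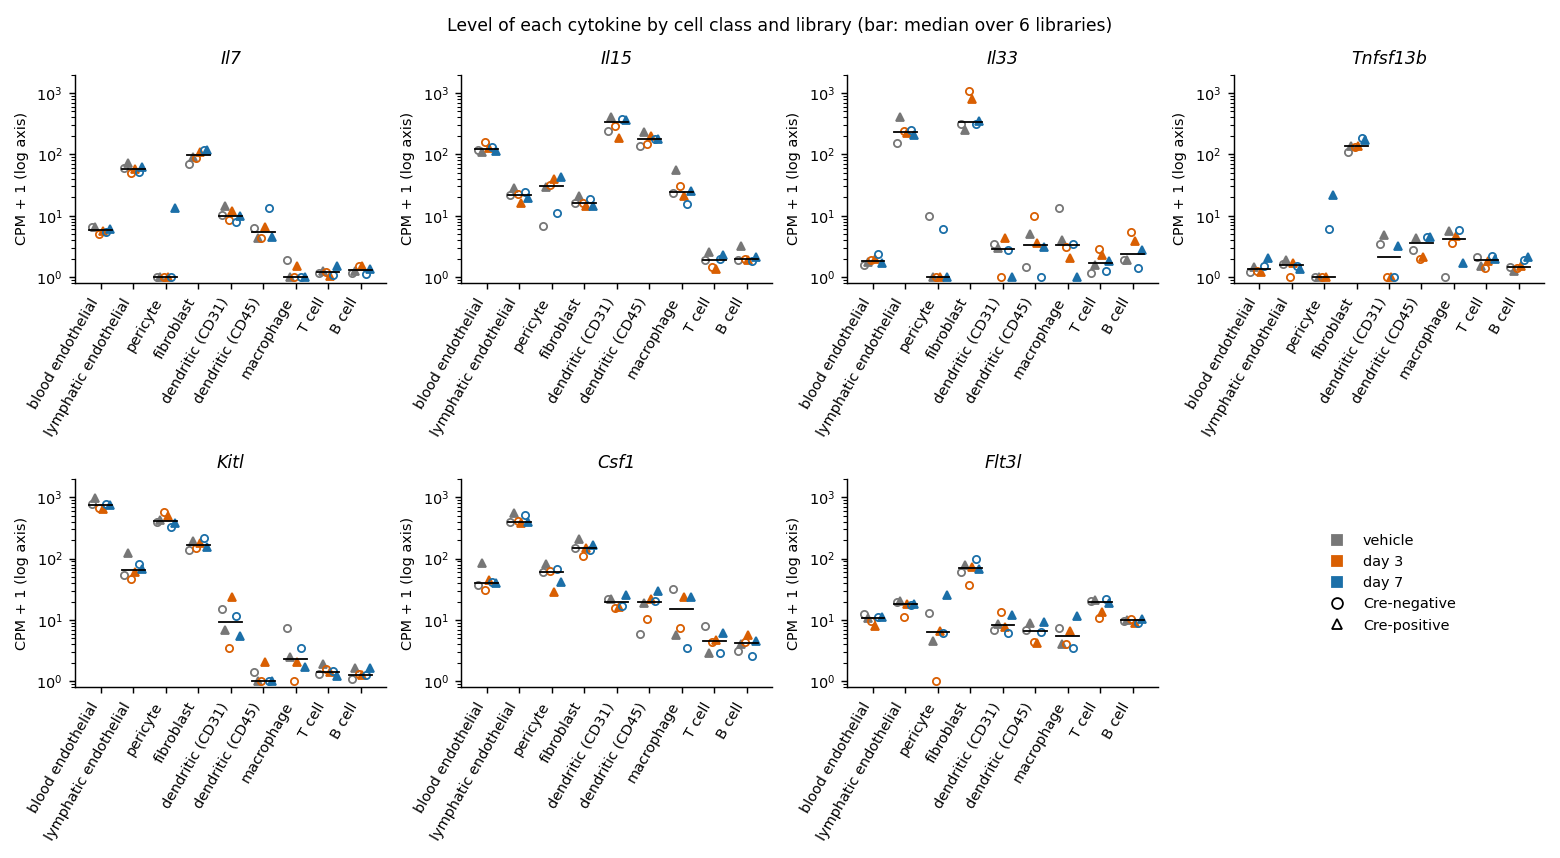
CPM + 1 (log axis) of each gene in 9 classes, 1 point per library, coloured by treatment and shaped by Cre label, with a bar at the median. Blood and lymphatic endothelial, pericyte and 1 set of dendritic values come from the 6 CD31 libraries, the others from the 6 CD45 libraries. In the Il33 panel the 2 day 3 libraries stand above the other 4 in fibroblast-like cells, at 1082 and 801 CPM.

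Csf1, the macrophage growth factor, was highest in lymphatic endothelial-like cells among the stromal classes. Its level there was 389 and 554 CPM under vehicle, 404 and 379 CPM on day 3 and 514 and 388 CPM on day 7, with no order by treatment. Fibroblast-like cells had a median of 146 CPM (108 to 205 CPM), pericyte-like cells 60.4 CPM and blood endothelial-like cells 39.5 CPM (30.3 to 85.4 CPM), and the ranges of the last 2 overlapped. Outside the stroma, mast cell or basophil-like cells of the CD31 libraries were few (54 in all). They read 323 and 1144.5 CPM in the vehicle and day 3 Cre-negative libraries. Lymphatic cells differed among themselves. Floor cells, which face the node and carry Madcam1, had 597 to 792 CPM, cortical and medullary cells 322 to 607 CPM and ceiling cells, which face the capsule, 256 to 297 CPM. The ceiling range lay below both others, and the upper 2 overlapped. Among fibroblast-like cells the adventitial cells, which surround large vessels, had the highest median, with 182 to 309 CPM. Cxcl12-led cells (132 to 187 CPM) and Mgp-led cells (125 to 192 CPM) overlapped that range, and Ccl21a-led reticular cells, at 86.5 to 134 CPM, lay below it.

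Csf1r, its receptor, was read at 305 to 552 CPM in macrophage-like cells of the CD45 libraries and at 1.26 to 3.62 CPM in fibroblast-like cells.

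In the lymphatic endothelium Il33, like Csf1, was lowest in ceiling cells. Floor cells had 393 to 676 CPM and cortical and medullary cells 201 to 585 CPM, but ceiling cells only 16.7 to 52.1 CPM. Over the whole lymphatic class the libraries read 150.03 and 403 CPM under vehicle, 244 and 222 CPM on day 3 and 245 and 202 CPM on day 7, and the 2 vehicle libraries lay at both ends. Blood endothelial-like cells had 0.591 to 1.33 CPM, from 113 UMIs over 6 libraries, and after estimated free RNA was subtracted their median was 0 CPM. Their share of cells with an Il33 UMI was 0.293% to 0.575%, beside 0.197% to 0.625% in B cell-like cells from those libraries (median 2930.5 to 3662 UMIs per B cell, 3389 to 4702 per blood endothelial cell), so it lay at the background of free RNA.

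Il7 also separated the stroma. Fibroblast-like cells had a median of 98.5 CPM (69.4 to 119 CPM) and lymphatic endothelial-like cells 57.7 CPM (48.8 to 70.0 CPM), ranges that overlapped at their ends, while blood endothelial-like cells had 4.84 CPM (4.02 to 5.64 CPM). Of its UMIs in the CD45 libraries, 49.0% lay in Ccl21a-led cells, at 89.4 to 216 CPM, and 45.6% in Cxcl12-led cells, at 114 to 141 CPM. Mgp-led cells had 4.47 to 34.2 CPM and adventitial cells 0.548 to 3.67 CPM. In the lymphatic endothelium floor cells, highest for Csf1 and Il33, were lowest for Il7, with 17.1 to 32.9 CPM. Ceiling cells had 65.8 to 90.5 CPM and cortical and medullary cells 60.6 to 135 CPM, ranges that overlapped.

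Il7r, the receptor chain for IL-7, was read at 248 to 493 CPM in T cell-like cells of the CD45 libraries.

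Tnfsf13b was the most restricted of the 7. Fibroblast-like cells read 108 and 134 CPM under vehicle, 129.8 and 137 CPM on day 3, and 186 and 172 CPM on day 7, so the day 7 libraries were the 2 highest. Lymphatic endothelial-like cells had 0 to 0.911 CPM and blood endothelial-like cells 0.197 to 1.03 CPM, from 19 and 52 UMIs in all. Of its UMIs in the CD45 libraries, 40.3% lay in Ccl21a-led and 48.6% in Cxcl12-led reticular cells, with 132 to 263 CPM in Ccl21a-led and 153 to 242 CPM in Cxcl12-led cells. Mgp-led cells had 46.0 to 97.7 CPM and adventitial cells 16.5 to 47.7 CPM.

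Tnfrsf13c, the BAFF receptor, was read at 162 to 207 CPM in B cell-like cells of the CD45 libraries, and at 0 to 11.8 CPM in NK cell-like cells.

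Flt3l was the most widely spread. Fibroblast-like cells had a median of 69.6 CPM (36.3 to 97.0 CPM), T cell-like cells of the CD45 libraries 18.9 CPM (9.93 to 21.4 CPM), lymphatic endothelial-like cells 17.5 CPM (10.2 to 19.7 CPM), blood endothelial-like cells 9.89 CPM (6.93 to 11.7 CPM) and B cell-like cells 8.86 CPM (7.82 to 9.48 CPM). The ranges of T and lymphatic endothelial-like cells overlapped, as did those of blood endothelial-like and B cell-like cells. The day 3 Cre-negative CD45 library was the lowest in fibroblast-like and T cell-like cells, and the CD31 library of the same group the lowest in lymphatic endothelial-like cells. In T cell-like cells of the CD45 libraries both day 3 libraries lay below all others, at 9.93 and 12.3 CPM. The same held in blood endothelial-like cells, at 8.62 and 6.93 CPM, but not in the other classes named here. Flt3, its receptor, was read at 209 to 416 CPM in dendritic cell-like cells of the CD31 libraries.

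Shares of cells are given for the stromal class that led by level, so they describe that class and do not test the source. In their leading stromal class a median of 84.6% of cells had a UMI of Kitl, 66.5% of Csf1, 69.0% of Il33, 55.7% of Tnfsf13b, 36.8% of Flt3l, 34.3% of Il7 and 30.6% of Il15. For B cell-like cells, taken from the matching fraction, the medians were 1.48%, 1.03%, 0.608%, 0.192%, 3.32%, 0.136% and 0.673% in that order. Thinned to 1000 UMIs per cell, the medians were 49.0% for Kitl, 28.6% for Csf1, 25.7% for Il33, 11.9% for Tnfsf13b, 6.73% for Flt3l, 8.99% for Il7 and 9.76% for Il15.

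**Figure D3:**
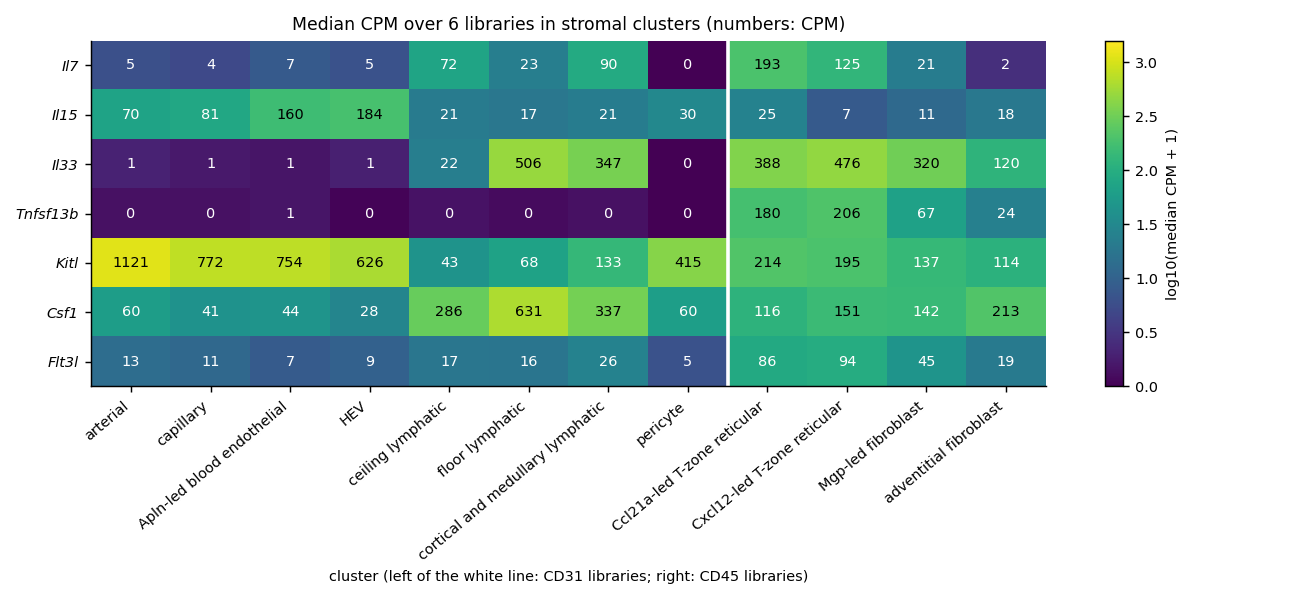
Median CPM over 6 libraries (number in each cell, colour as log10 of CPM + 1) of the 7 genes (rows) in 12 stromal clusters (columns). In the lymphatic clusters Csf1 and Il33 peak in floor cells (631 and 506 CPM) where Il7 is lowest (22.6 CPM), and Tnfsf13b passes 20 CPM in the 4 fibroblast clusters alone.

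With oxazolone 1 of the 7 genes passed within a class. Il33 rose in fibroblast-like cells by day 3: the 2 vehicle libraries read 314 and 253 CPM, the day 3 libraries 1082 and 801 CPM, and the day 7 libraries 317 and 353 CPM. Both day 3 libraries lay above all 4 others. The rise was 3.44-fold in Cre-negative and 3.17-fold in Cre-positive libraries, a log2 change of 1.77 ± 0.21 (SE; edgeR quasi-likelihood test over 6 CD45 libraries, adjusted p = 0.00741). On day 7 the log2 change from vehicle was 0.25 ± 0.20 and did not pass. Of the 15487 genes tested in this class on day 3, 11.7% passed, 937 up (6.05%) and 868 down (5.6%), so many genes moved at this time, and 1 of 7 members is near that share.

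The share of fibroblast-like cells with an Il33 UMI, thinned to 1000 UMIs, was 23.3% and 19.2% under vehicle, 50.9% and 45.7% on day 3 and 25.4% and 25.96% on day 7. Before thinning it was 58.6% and 62.9%, then 85.2% and 89.7%, then 62.7% and 75.1%. Depth moved with treatment, since the median UMI count of a fibroblast-like cell was 5929 and 8360 under vehicle, 11764 and 13951 on day 3, and 5518 and 8342 on day 7. In B cell-like cells the thinned share was 0.0305% to 0.595%.

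The makeup of the fibroblast class moved too. Ccl21a-led reticular cells numbered 174 and 209 under vehicle, 832 and 435 on day 3, and 239 and 504 on day 7. Within these cells alone Il33 went from 354 and 418 CPM to 1194 and 891 CPM, and back to 358 and 348 CPM, a day 3 log2 change of 1.52 ± 0.25 (edgeR, adjusted p = 0.0221). Cells led by Mgp, which encodes a matrix protein, went from 299 and 211 CPM to 661 and 586 CPM, a log2 change of 1.25 ± 0.30 (edgeR, adjusted p = 0.0390). Cxcl12-led reticular cells had 514 and 285 CPM under vehicle and 1349 and 859 CPM on day 3, a log2 change of 1.51 ± 0.28 that did not pass (edgeR, adjusted p = 0.0770). Adventitial cells had 123 and 117 CPM under vehicle and 123 and 147 CPM on day 3, a log2 change of 0.05 ± 0.18. So in 3 of the 4 clusters both day 3 libraries lay above the 4 others, and in adventitial cells all 6 libraries lay between 86.2 and 147 CPM. Of all genes, 1280 of 12665 passed in Ccl21a-led, 260 of 11048 in Mgp-led, 30 of 12952 in Cxcl12-led and 0 of 10683 in adventitial cells. Passing or not in a cluster follows these yields as well as the size of the change. The part of the shift in makeup in the change over the whole class was not tested beyond these fits, which were chosen after seeing the data.

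**Figure D4:**
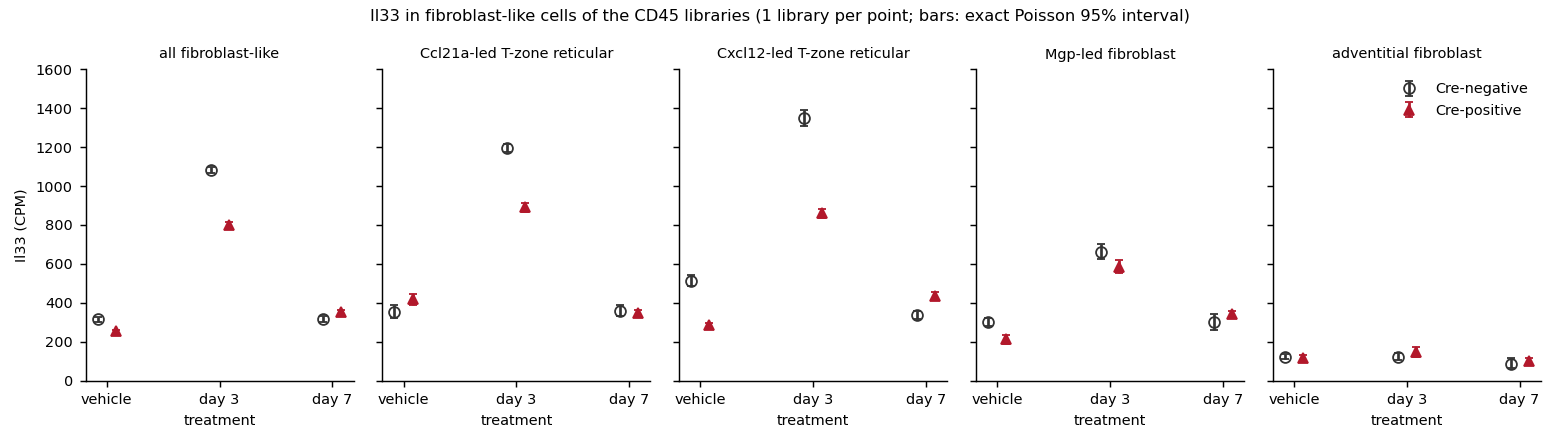
Il33 level (CPM, vertical axis) in fibroblast-like cells of the CD45 libraries by treatment, for the whole class and its 4 clusters, 1 library per point with an exact Poisson 95% interval for counting error. Both day 3 points (1082 and 801 CPM in the class) stand above the rest in the class and in the Ccl21a-led, Cxcl12-led and Mgp-led panels, while the adventitial points lie between 86.2 and 147 CPM.

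Among cells with a Y-linked UMI alone the log2 change was 1.499 ± 0.223 (edgeR, adjusted p = 0.0179). The summed level of 10 immune markers in fibroblast-like cells was 109 and 51.9 CPM under vehicle, 68.1 and 55.0 CPM on day 3 and 94.1 and 89.3 CPM on day 7, so both day 3 values lay within the vehicle range, with S100a8, a neutrophil gene, at 0 in 1 library and the other 9 seen in each. The Il33 call was kept with free RNA, scaled by these markers, subtracted and with a minimum of 2000 UMIs per cell. The part of immune RNA or of depth in the result was not tested beyond these fits and the thinned shares. With the day 3 Cre-negative library left out the log2 change of Il33 was 1.54, and with the day 3 Cre-positive library left out it was 2.02. These fits hold a single day 3 library and take their spread from the other groups, so they cannot test the call.

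The day 3 change of Il33 was also set against that in the endothelium, with 1 edgeR model over both classes. Fibroblast-like minus lymphatic endothelial-like cells gave a log2 difference of 1.86 ± 0.53 (edgeR, adjusted p = 0.269), a comparison in which 0.247% of 15402 genes passed. With each pair of CD31 and CD45 libraries as a block the difference was 1.77 ± 0.49 (edgeR, adjusted p = 0.164), and 0.864% of genes passed. So the rise was not shown to differ from the change in lymphatic cells, which was -0.15 ± 0.40. Against blood endothelial-like cells, whose Il33 lay at background, the difference was 1.29 ± 0.47 (edgeR, adjusted p = 0.370), where 0.54% of genes passed.

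Il33's receptor Il1rl1 was read at 4.13 to 13.99 CPM in T cell-like cells of the CD45 libraries and at 0.302 to 2.97 CPM in fibroblast-like cells. Il1rap, the second chain of that receptor, had 26.5 to 78.1 CPM in fibroblast-like cells.

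No other member passed in any of the 9 comparisons of treatment or Cre label within the 3 classes. In Ccl21a-led cells alone both day 3 libraries lay below the others for Il7, Flt3l, Kitl and Il15, though none of these passed (1280 of 12665 did). Il7 read 189 and 204 CPM under vehicle, 89.4 and 134 CPM on day 3 and 216 and 197 CPM on day 7. Flt3l read 90.6 and 128 CPM, then 36.6 and 65.5 CPM, then 122 and 82.3 CPM. Kitl read 230.5 and 229.6 CPM, then 135 and 179 CPM, then 236 and 198 CPM. Il15 read 26.6 and 59.2 CPM, then 19.5 and 20.7 CPM, then 40.7 and 23.5 CPM. The day 3 folds in Cxcl12-led cells were 1.10 and 0.952 for Il7 and 0.560 and 0.891 for Flt3l. In Mgp-led cells those of Flt3l were 0.439 and 1.25. In fibroblast-like cells on day 7, where 0.284% of genes passed, all 44 of them lower, Il7 had a log2 change of 0.55 ± 0.17 (edgeR, adjusted p = 0.463) and Tnfsf13b of 0.56 ± 0.17 (edgeR, adjusted p = 0.472). Il7 read 69.4 and 90.0 CPM in the vehicle libraries and 119 and 115 CPM on day 7, so these groups did not overlap. Makeup moved here as well: adventitial cells, which hold little of either gene, numbered 347 and 317 under vehicle and 71 and 174 on day 7. In Ccl21a-led cells alone the day 7 log2 changes were 0.06 ± 0.22 for Il7 and 0.11 ± 0.30 for Tnfsf13b, and in Cxcl12-led cells -0.02 ± 0.17 and 0.23 ± 0.22. In Mgp-led cells they were 0.94 ± 0.52 and 0.49 ± 0.24, and Tnfsf13b had 0.60 ± 0.34 in adventitial cells, where Il7 was too low to be tested. By label, Cre-negative then Cre-positive, Tnfsf13b on day 7 was 1.66-fold and 0.745-fold of vehicle in Ccl21a-led cells. It was 0.915-fold and 1.43-fold in Cxcl12-led, 1.32-fold and 1.51-fold in Mgp-led and 2.57-fold and 1.0135-fold in adventitial cells. The clusters come from the same libraries, so these folds are not replicates of each other. On day 3 Csf1 in fibroblast-like cells had a log2 change of -0.42 ± 0.15 (edgeR, adjusted p = 0.121). It was 0.743-fold of vehicle in Cre-negative and 0.713-fold in Cre-positive libraries. Across labels its levels of 146 and 205 CPM under vehicle overlapped 108 and 147 CPM on day 3. By cluster and label its day 3 folds ran from 0.760 to 1.13, both in adventitial cells.

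In blood endothelial-like cells no gene of 15014 passed on day 3 or day 7 in edgeR (0.0%), although 3624 and 373 had p under 0.05 before adjustment. Il15 had a log2 change of 0.38 ± 0.11 on day 3 (edgeR, adjusted p = 0.122), from 117 and 110.2 CPM to 157 and 128 CPM. The day 3 libraries lay above the vehicle ones, but the day 7 Cre-negative library, at 132 CPM, lay above the day 3 Cre-positive one. Flt3l had a log2 change of -0.40 ± 0.15 on day 3 (edgeR, adjusted p = 0.180). Kitl had -0.36 ± 0.16 and Csf1 -0.59 ± 0.31 on day 3, and both values rest in part on the vehicle Cre-positive library, which was the highest of the 6 for both genes. Without the day 7 Cre-negative library Csf1 passed in this class, both on day 3 and by Cre label. That fit holds 1 day 7 library and called many more genes than the full fit in both comparisons, so this says little about Csf1 in particular. DESeq2 called 826 genes on day 3 and 2 on day 7 in this class, and no member.

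In lymphatic endothelial-like cells no gene of 13307 passed in edgeR in any comparison (0.0%), while 692 had p under 0.05 before adjustment on day 3, 88 on day 7 and 344 by Cre label, and DESeq2 called 12, 1 and 1. Tnfsf13b was too low there to be tested. The other 6 members had log2 changes from -0.64 (Kitl) to -0.15 (Il33) on day 3 and from -0.22 to -0.07 on day 7, with standard errors of 0.19 to 0.40. Their medians were -0.33 and -0.18, beside -0.01 on day 3 and 0.0045 on day 7 over all genes tested. The vehicle Cre-positive library was the highest of the 6 for all 6 of these genes. In Cre-negative libraries alone Il33 was 1.62-fold of vehicle on day 3 and 1.63-fold on day 7 over the class, so its lower values rest in part on that library. There Csf1 was 1.04-fold and 1.32-fold, Il15 1.04-fold and 1.15-fold and Kitl 0.873-fold and 1.52-fold. Il7 lay below vehicle in both labels, at 0.824-fold and 0.803-fold on day 3 and 0.855-fold and 0.875-fold on day 7. So did Flt3l, at 0.551-fold and 0.888-fold, then 0.906-fold and 0.893-fold. The makeup of the class moved too: floor cells, rich in both Il33 and Csf1, numbered 210 and 282 under vehicle, 147 and 131 on day 3, and 502 and 228 on day 7. Within floor, cortical and medullary, and ceiling cells the Cre-negative folds of Il33 were 1.36, 1.37 and 1.07 on day 3 and 1.05, 1.18 and 1.23 on day 7. The Cre-positive folds, taken over the high vehicle library, were 0.819, 0.343 and 0.320 on day 3 and 0.705, 0.631 and 0.325 on day 7. For Csf1 the Cre-negative folds were 1.04, 0.847 and 0.986, then 1.28, 0.846 and 1.00, and the Cre-positive ones 0.757, 0.538 and 0.862, then 0.813, 0.571 and 0.916. The part of this makeup in the class values was not tested beyond fits of each cluster alone, in which no member passed. Almost no gene passed in these fits. On day 3 they called 5 of 11487 genes in ceiling, 0 of 9309 in cortical and medullary and 1 of 11312 in floor cells, and 0 on day 7.

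By Cre label, Cre-positive minus Cre-negative, no member passed. In blood endothelial-like cells 0.00666% of genes passed, which was 1 gene, Cdo1, outside the lists and named because it stood alone. Csf1 had a log2 difference of 0.57 ± 0.26 there, Il15 of -0.21 ± 0.09 and Kitl of 0.08 ± 0.13, each with an adjusted p of 0.999 in edgeR. Csf1 read 36.8, 30.3 and 40.7 CPM in Cre-negative and 85.4, 44.5 and 38.4 CPM in Cre-positive libraries, so the groups overlapped. In fibroblast-like cells, which the endothelial Cre is not meant to reach, 0.0% of genes passed (1364 with p under 0.05 before adjustment; 29 called by DESeq2), and Csf1 had a log2 difference of 0.35 ± 0.13 (edgeR, adjusted p = 0.564). Members were also tested in each of 10 stromal clusters alone, 30 fits in all, and only Il33 passed, in the 2 fits given above. Of all genes, those 2 fits called 1280 of 12665 and 260 of 11048. The other cluster fits called few or none, at most 35 of 10881 (arterial-like cells on day 3). The difference between classes in the change by Cre label passed in 0.00594% of genes for fibroblast-like against blood endothelial-like cells, and in no member.

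**Figure D5:**
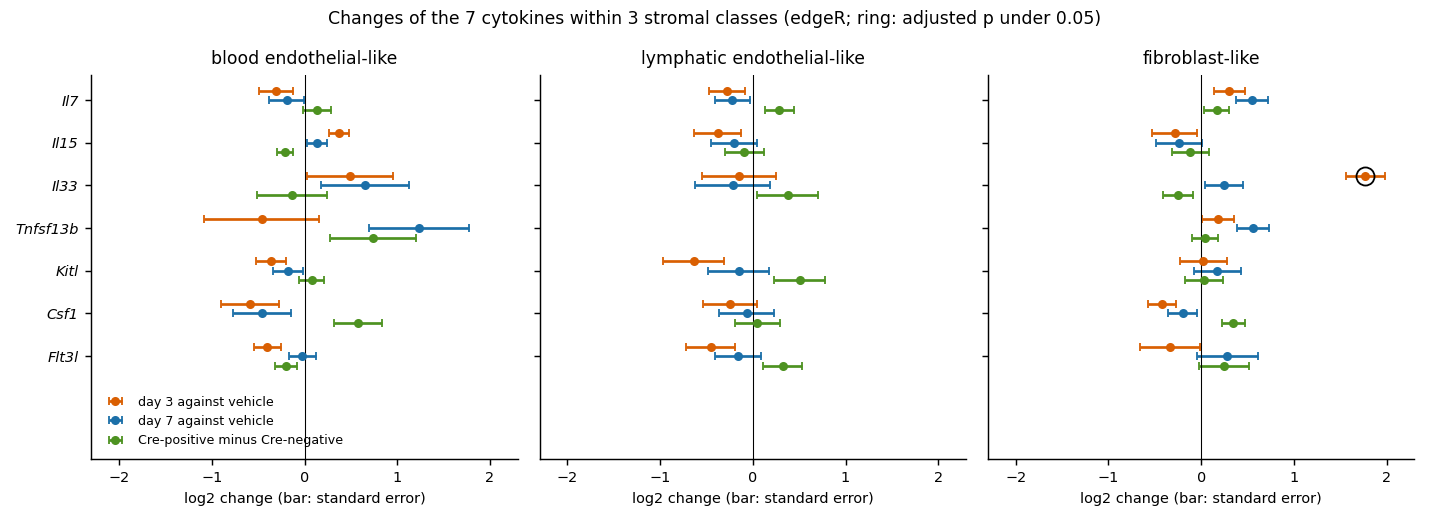
log2 change with its standard error (horizontal axis) of the 7 genes in 3 stromal classes for day 3 against vehicle, day 7 against vehicle, and Cre-positive minus Cre-negative. The ring marks the only change that passed, Il33 in fibroblast-like cells on day 3 (1.77 ± 0.21), and Tnfsf13b could not be tested in lymphatic cells.

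Of 12 receptor genes, between 5 and 10 could be tested in a class, and none passed in any of the 9 comparisons. Those with a median of 20 CPM or more in a stromal class were Kit and Il15ra, given above, Il1rap in fibroblast-like cells and Il2rg, the shared gamma chain of the IL-7 and IL-15 receptors. Il2rg was read at 295 to 348 CPM in lymphatic endothelial-like cells and at 150.2 to 213 CPM in blood endothelial-like cells, beside 153 to 234 CPM in T cell-like cells of the CD45 libraries. In fibroblast-like cells it had 7.92 to 14.5 CPM. Between whole fractions 10 of the 12 receptors passed, 3 higher in CD31 libraries (Kit, Il15ra and Il2rg) and 7 lower (Il7r, Il2rb, Il1rl1, Il1rap, Tnfrsf13b, Tnfrsf13c and Flt3), beside 29.7% of all genes higher and 29.3% lower.

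Of 9 related growth cytokines, 8 were tested in fibroblast-like cells on day 3, where 1 rose and 1 fell, beside 6.05% of all genes up and 5.6% down. Tnfsf11, which encodes RANKL, rose from 61.2 and 43.2 CPM to 177 and 171 CPM and read 53.4 and 105 CPM on day 7, a day 3 log2 change of 1.78 ± 0.31 (edgeR, adjusted p = 0.0213). Tslp, an epithelial and stromal cytokine related to IL-7, fell by 0.94 ± 0.23 on the log2 scale (edgeR, adjusted p = 0.0475), from 23.9 and 25.6 CPM to 11.7 and 13.5 CPM. The median log2 change of the list was -0.21, beside -0.02 over all genes. Igf1 had 228 to 361 CPM in fibroblast-like and 130 to 239 CPM in lymphatic endothelial-like cells, Il6 11.3 to 91.2 CPM in fibroblast-like cells and Tnfsf13, the sister gene of Tnfsf13b, 20.96 to 30.6 CPM in blood endothelial-like cells, and none of these 3 passed within a class. With the pairs of libraries as a block, the day 3 change of Il6 was lower in fibroblast-like than in lymphatic and blood endothelial-like cells, by log2 differences of -3.93 ± 0.74 and -2.66 ± 0.25 (edgeR, adjusted p = 0.0378 and 0.00219). That of Tslp was lower than in blood endothelial-like cells, at -1.60 ± 0.22 (edgeR, adjusted p = 0.00927), and none of these differences passed without the block (edgeR, adjusted p from 0.118 to 0.270). Under the block 0.864% and 1.5% of all genes passed, and Il6 had no UMI in lymphatic endothelial-like cells of 1 vehicle library. Between whole fractions Csf3, Tnfsf13 and Tslp were higher in CD31 libraries, and Il34, Tnfsf11, Lif and Igf1 lower, so 7 of 9 passed beside 59.0% of all genes.

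Of 4 proteases known to release or process members, 1 passed in fibroblast-like cells on day 3, beside 11.7% of all genes. Mmp9, which can free SCF from the cell surface, rose there from 8.10 and 6.81 CPM to 14.7 and 29.2 CPM, a log2 change of 1.54 ± 0.28 (edgeR, adjusted p = 0.0234), and read 9.65 and 13.8 CPM on day 7. The level of Mmp9 was higher in lymphatic endothelial-like cells, at 62.4 to 185 CPM. Adam10 had 313 to 368 CPM in lymphatic and 199.6 to 249.9 CPM in blood endothelial-like cells, Adam17 58.3 to 72.3 CPM in blood endothelial-like cells and Furin, which processes BAFF, 35.7 to 42.0 CPM in fibroblast-like cells. Between whole fractions all 4 were higher in CD31 libraries, beside 29.7% of all genes.

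A fit without 1 day 3 library takes its spread from the other groups, so it cannot test the calls of Tnfsf11, Tslp and Mmp9. The log2 changes without the Cre-negative and without the Cre-positive day 3 library were 1.57 and 1.98 for Tnfsf11 and -0.77 and -1.10 for Tslp. For Mmp9 they were 1.89 and 1.17. Without the vehicle Cre-positive library, which leaves 1 vehicle library, Tslp had a log2 change of -0.72. The call of Tslp was lost, narrowly, under 4 other settings (edgeR, adjusted p from 0.0521 to 0.0547, log2 changes from -0.95 to -0.92). Among cells with a Y-linked UMI alone Tnfsf11 and Tslp did not pass, with log2 changes of 1.62 ± 0.54 and -0.64 ± 0.22 (edgeR, adjusted p = 0.121 and 0.138). None of the 3 passed in a single fibroblast cluster where it could be tested. Of all genes, 1280 of 12665 passed in Ccl21a-led and 30 of 12952 in Cxcl12-led cells on day 3. In Mgp-led cells 260 of 11048 passed and in adventitial cells 0 of 10683, so 2 of these fits called almost nothing. In Ccl21a-led cells the log2 changes were 0.72 ± 0.52 for Tnfsf11, 0.16 ± 0.32 for Tslp and 0.92 ± 0.46 for Mmp9, and in Cxcl12-led cells 1.34 ± 0.31, -1.05 ± 0.21 and 1.34 ± 0.30. Tslp had -1.22 ± 0.32 in Mgp-led cells (edgeR, adjusted p = 0.0563) and -0.20 ± 0.32 in adventitial cells, where the other two were too low to be tested. Ccl21a-led cells numbered 174 and 209 under vehicle and 832 and 435 on day 3, and the part of this in the class values was not tested further.

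The genes most like each member across 23 sums of 4 stromal classes in the CD31 libraries, among 7414 genes at 20 CPM or more, were named by Pearson's r of log2 levels, as a description of sums that share libraries. Il33 was most like Fgf14 (r = 0.97), Pdpn (0.97), which encodes podoplanin, a marker of lymphatic and reticular cells, and Serpina3n (0.95). Il7 was most like Colec12 (0.95), Lima1 (0.93) and Ctsl (0.92), and Tnfsf13b like the complement gene C4b (0.93), Clmp (0.93) and Dsc3 (0.92). Kitl was most like the interferon-induced genes Ifi203 (0.95) and Mndal (0.94) and like Fam13c (0.95). Csf1 was most like Nudt4 (0.94), Ube2e2 (0.92) and Hivep3 (0.91). The closest genes to Flt3l were Zfp36l2 (0.87), Cpsf3 (0.82) and Zfp422 (0.81), and those to Il15 were Diaph2 (0.83), Impdh1 (0.83) and Serpinb6a (0.81). These sums include the 5 small fibroblast-like groups of the CD31 libraries, of 7 to 20 cells each. Tnfsf13b was near its floor in the blood and lymphatic endothelial sums, so its correlations describe mainly the contrast between those sums and the others.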

How the data were processed

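Single-cell RNA was measured in 12 mouse lymph node libraries. The values deposited are raw UMI counts for every gene in every barcode, made by the authors with a 10x 3-prime kit and Cell Ranger; the file headers name Cell Ranger 4, while the submitters' processing notes name Cell Ranger 7.0.1 and the build mm10. Kept barcodes had at least 1000 UMIs and 500 genes and no more than 10% of UMIs from mitochondrial genes, and the barcodes scoring highest as doublets were removed at 0.8% per 1000 barcodes (4.78% to 9.31% of a library). In the vehicle Cre-negative and day 3 Cre-positive CD31 libraries the removed barcodes had lower median UMIs (3702 and 2157) than the kept ones (4329 and 3434). Doublet removal may have failed there, which was not tested, and both libraries enter the endothelial fits. Cells were clustered per fraction with scanpy 1.11.5 (2000 variable genes without the listed genes, 30 components, 20 neighbours, Leiden resolution 1.0) and named from marker lists. Counts were summed per library and class. The sums were tested with edgeR 4.0.16 (TMM, filterByExpr, quasi-likelihood test, Benjamini-Hochberg over all genes tested) with treatment and Cre label as terms, on 6 libraries with 2 residual degrees of freedom, or on 12 with the fraction added. The script was first tested on simulated data. Fibroblast-like sums were to come from the CD31 libraries, which held too few of these cells, so the CD45 libraries were used. CPM intervals are exact Poisson and cover counting error only. DESeq2 1.42.0, other filters, free RNA, doublets, clustering and left-out libraries were tried as alternatives. An mRFP feature listed in 4 libraries was left out.

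The 7 genes, the lists of receptors, related cytokines and proteases, and the tests were chosen with earlier results of these data known. From each list the text names the genes that passed in any comparison and those at 20 CPM or more in a fitted class, and for each member the 3 genes most like it.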

Additional observations from a re-analysis of the deposited data

How the results depend on the processing

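No paired analysis was possible because each combination of treatment, label and fraction was 1 library, except between fractions. There a block for each of the 6 pairs of CD31 and CD45 libraries, added after seeing the data, called all 7 members and 10813 genes, against 10379 without the block. In the difference of the day 3 changes between classes the block raised the genes called from 38 to 133 against lymphatic and from 91 to 253 against blood endothelial-like cells. Il33 passed in neither fit, with 1.77 ± 0.49 and 1.28 ± 0.51 under the block (edgeR, adjusted p = 0.164 and 0.366), while Il6 passed in both comparisons and Tslp against blood endothelial-like cells under the block alone. All 7 members passed between whole fractions under each alternative run and without each library. Of 60 member changes within classes, 7 had p under 0.05 in edgeR and 0 of those changed sign under a planned setting or without a library, while 13 of all changed sign under a planned setting and 32 without 1 library. The Il33 rise kept its call under the 8 planned settings other than left-out libraries. It was lost in Cxcl12-led and in adventitial cells alone (0 members called, alternatives added after seeing the data), where 30 of 12952 and 0 of 10683 genes passed. Fits without either day 3 library hold 1 library in that group and cannot test the call. In blood endothelial-like cells Csf1 was called without the day 7 Cre-negative library, both on day 3 and by Cre label. That fit holds 1 day 7 library, and many more genes passed in it than in the full fit. The cause was not tested.

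Counts of genes called moved with the processing. With DESeq2 they were 826 (day 3), 2 (day 7) and 21 (Cre label) in blood endothelial-like cells, 12, 1 and 1 in lymphatic endothelial-like cells, and 158 on day 7 and 29 by Cre label in fibroblast-like cells. With no filter on low counts they were 1024 on day 3 and 9 by Cre label in blood endothelial-like cells, 86, 8 and 16 in lymphatic endothelial-like cells, and 2814, 198 and 16 in fibroblast-like cells. With cells that had a Y-linked UMI alone they were 3 on day 3 and 2 on day 7 in blood endothelial-like cells and 656, 11 and 3 in fibroblast-like cells. With free RNA subtracted, 0 genes passed by Cre label in blood endothelial-like cells, 1 in lymphatic endothelial-like cells, and 11 on day 7 in fibroblast-like cells. DESeq2 size factors in edgeR gave 19 on day 7 in fibroblast-like cells, and removing 2 times the share of doublets gave 1 by Cre label in lymphatic endothelial-like cells. Without 1 library, day 3, day 7 and Cre label gave 0 to 1783, 0 to 18 and 0 to 58 in blood endothelial-like cells, 0 to 108, 0 to 43 and 0 to 82 in lymphatic endothelial-like cells, and 0 to 2993, 0 to 207 and 0 to 149 in fibroblast-like cells. The Il33 median in blood endothelial-like cells was 0 CPM with free RNA subtracted. Thinned median shares were 49.0% for Kitl, 9.76% for Il15, 28.6% for Csf1, 25.7% for Il33, 8.99% for Il7, 11.9% for Tnfsf13b and 6.73% for Flt3l.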
